A study of Brassica carinata x Brassica rapa with 9 samples.

Results

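The meiotic crossover genes SPO22, SHOC1, MSH4 and MSH5 were followed copy by copy in a synthetic Brassica allohexaploid, made by crossing B. carinata, which contributes the B- and C-genomes, with B. rapa, which contributes the A-genome. The members are 7 of the 100804 genes in the data, taken by identifier from the genes that the paper names as orthologs of these 4 Arabidopsis genes. They are 3 copies of SPO22 (Bra037488, BniB000031 and Bol043105), 1 copy of SHOC1 (Bra029127), 1 copy of MSH4 (Bol032857) and 2 copies of MSH5 (Bra035777 and BniB043474). The prefix of an identifier gives the subgenome, with Bra for A, BniB for B and Bol for C. Further copies of these genes on the 3 subgenomes were not analysed here.

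RNA was sequenced from whole anthers collected from meiosis to mature pollen (Anther), from ovules collected from meiosis to the mature embryo sac (Ovule) and from young leaves (Leaf), with 3 libraries each and 9 in all. All plants had the genotype AABBCC, and no other treatment or genotype was compared. Which parent was the mother differs between sources, with B. rapa named in the labels and B. carinata in the paper. Each Anther or Ovule library pools a long run of stages in which meiosis takes up only the start, and meiotic cells are a minority of either organ. In such bulk samples, fewer cells of a type and less RNA per cell cannot be told apart.

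Meiotic crossovers join homologous chromosomes so that they segregate correctly at the meiotic division that separates them. In Arabidopsis most crossovers are of class I, which interfere with each other and depend on the ZMM proteins. SPO22, also called ZIP4, is a scaffold-like protein built of TPR repeats, and SHOC1 resembles XPF nucleases and is the plant counterpart of yeast Zip2. MSH4 and MSH5 are MutS homologs that act as a heterodimer and stabilise recombination intermediates, and HEI10 is a RING-domain protein that marks the sites that become class I crossovers.

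The sequences shown for these genes are the RT-qPCR primers that the study lists for its B-genome copy of SPO22, BniB000031. They are shown because they name the copy that was assayed by a second method, and it is the copy with the smallest difference between Anther and Ovule of the 7 described below. Both are 20 bases long and are written 5′ to 3′, with no part in capitals.
BniB000031 forward: aaggagagctcaggcgtttc
BniB000031 reverse: gttgaaacacgtcacgcgaa
The paper reports that the genes it assayed by RT-qPCR, this copy among them, followed the same trend as in RNA-Seq. No RT-qPCR value was analysed here. Whether these primers tell the 3 copies apart cannot be read from the primers alone.

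Levels are given in FPKM, fragments per kilobase of gene scaled to the reads of the library, as the authors deposited them without a stated scaling between libraries. Because the values are whole reads times a fixed step, the number of reads behind each value could be recovered. The smallest whole numbers that fit a gene were taken, counting as whole what lay within 0.01 of a whole number. Reads on genes came to 15076454 to 15526131 in Anther, 15113624 to 15516099 in Ovule and 8676388 to 10154908 in Leaf. The same steps gave gene lengths of 2811, 2799 and 2811 bases for the A-, B- and C-genome copies of SPO22, 4818 bases for SHOC1, 2361 bases for MSH4, and 2538 and 2337 bases for the A- and B-genome copies of MSH5. All 7 genes were weakly expressed. Anther replicate 2 stood apart from the other Anther libraries, and the fold changes of the 7 copies are therefore also given without it. The Leaf libraries differed from each other by little more than counting gives, with a mean chi-square per gene of 1.65 to 1.99, against 59.2 to 228 between Anther libraries and 34.7 to 38.8 between Ovule libraries. The paper calls the libraries of a tissue biological replicates without saying whether they came from separate plants, and if they did not, p-values measure only the spread between these libraries.

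All 7 copies were higher in Anther than in Ovule, and in each of them the lowest Anther library lay above the highest Ovule library. Among all 75038 genes tested, 14.3% were called higher in Anther, and 23.6% had all 3 Anther libraries above all 3 Ovule libraries, while 32.1% had all 3 below. Genes were tested when they reached 0.5 FPKM in 3 or more libraries, with limma on log2(FPKM + 0.1), and were called when the fold change was 2 or more and the Benjamini-Hochberg adjusted p over all genes tested was 0.05 or less. Of the 7 copies, 5 reached 0.5 FPKM in all 3 Ovule libraries as well as in all 3 Anther libraries. The A-genome copy of SPO22 did so in 2 Ovule libraries and SHOC1 in no Ovule library, and no copy did so in Leaf. Both of these copies were thus tested only because of their level in Anther, and their calls add nothing to those of the other 5 copies. As a description, the median log2 fold change of the 7 copies was 2.02, against -0.11 over all genes tested, which became 0.02 after rescaling by median-of-ratios factors, when all 7 copies were still called. The count of 7 fell to 3 when 0.01 was added before taking logs, where the calls of SPO22 Bra037488, SHOC1 and MSH5 Bra035777 were left. Of these, only MSH5 Bra035777 was among the 5 copies that reached 0.5 FPKM in all Ovule libraries. The count was 6 when 1 was added, without the filter, with only Anther and Ovule fitted, or without any 1 Ovule or Leaf library. It was 5 of the 6 copies tested when Anther replicate 2 or 3 was left out.

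**Figure D1:**
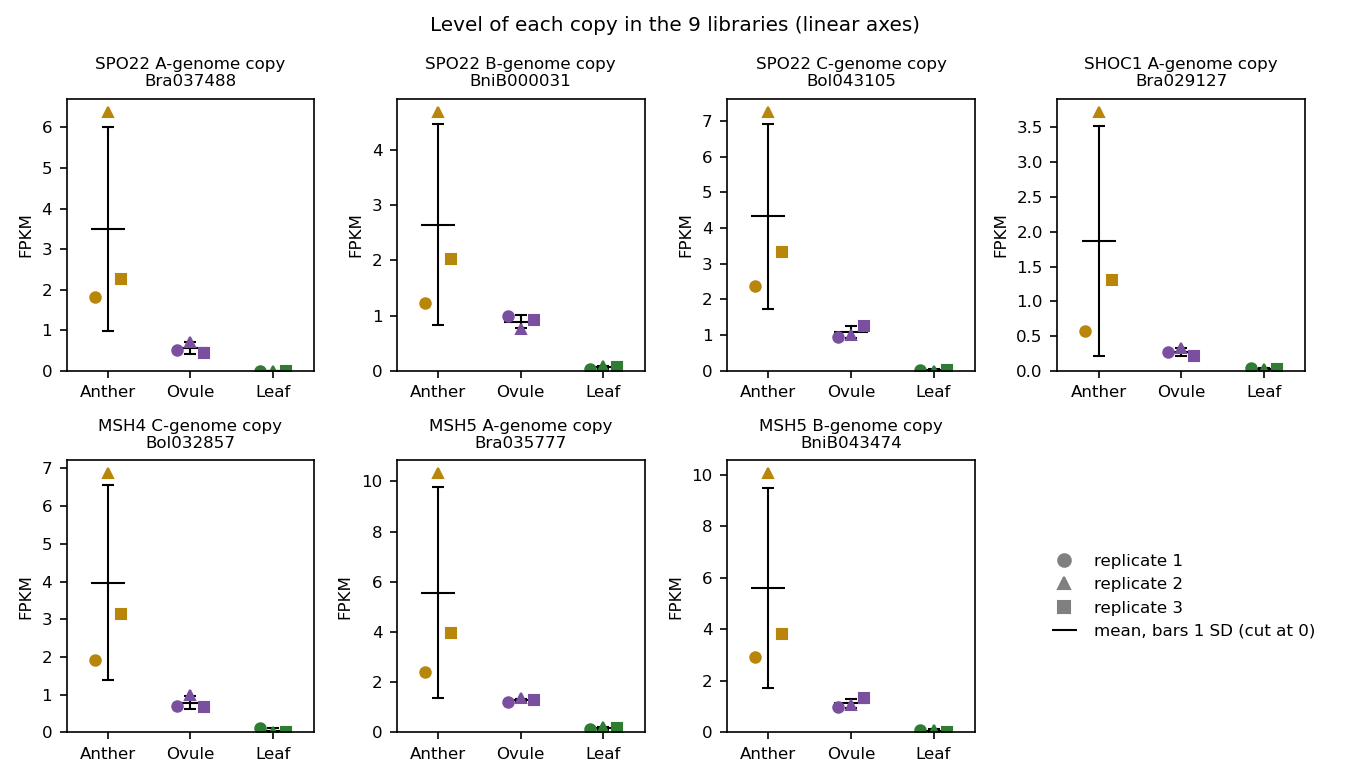
FPKM (linear axis, starting at 0) of the 7 copies in the 3 libraries each of Anther, Ovule and Leaf, with the replicate number as the marker shape, the mean as a dash and 1 SD as the bar. Anther replicate 2 (triangle) is the highest library in every panel, the other Anther libraries lie above the Ovule libraries, and Leaf lies close to 0.

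SPO22 was represented by a copy on each subgenome. Its A-genome copy Bra037488 stood at 1.82, 6.38 and 2.26 FPKM in Anther replicates 1, 2 and 3, against 0.527, 0.715 and 0.447 FPKM in Ovule replicates 1, 2 and 3. The Anther values rested on 78, 271 and 99 reads and the Ovule values on 23, 31 and 19 reads. The tissues did not overlap, and the lowest Anther library was 2.55 times the highest Ovule library. The mean was 3.49 ± 2.52 FPKM in Anther and 0.563 ± 0.137 FPKM in Ovule (SD, n = 3 each), a 6.20-fold difference of means, and 3.63-fold without Anther replicate 2. On the log2 scale the copy was higher in Anther by 2.24 (standard error 0.45, adjusted p = 0.00283 from limma). It reached 0.5 FPKM in only 2 Ovule libraries and was tested only because of its level in Anther, so this p-value adds no support.

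The C-genome copy of SPO22, Bol043105, was the most abundant of its 3 copies in both tissues on average. It stood at 2.38, 7.25 and 3.34 FPKM in Anther replicates 1, 2 and 3, against 0.962, 1.01 and 1.27 FPKM in Ovule replicates 1, 2 and 3. Anther was thus above Ovule in every library, with 556 reads over the Anther libraries and 140 over the Ovule libraries. The difference of means was 4.0-fold, and 2.64-fold without Anther replicate 2. In limma the copy was higher in Anther by 1.76 on the log2 scale, with a standard error of 0.40 (adjusted p = 0.00605).

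The B-genome copy of SPO22, BniB000031, showed the smallest difference of the 7. It stood at 1.22, 4.68 and 2.02 FPKM in Anther replicates 1, 2 and 3, against 0.989, 0.764 and 0.921 FPKM in Ovule replicates 1, 2 and 3. The lowest Anther library was only 1.23 times the highest Ovule library, so the tissues were separate by a narrow margin. In limma it was higher in Anther by 1.27 on the log2 scale, with a standard error of 0.44 (adjusted p = 0.0414). The difference of means was 2.96-fold, and 1.82-fold without Anther replicate 2. This call was lost in 15 of 20 alternatives, among them the fit without Anther replicate 2, where limma gave a log2 fold change of 0.76 and an adjusted p of 0.126, with 0.0102 to 0.126 over all alternatives.

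SHOC1 was the least abundant of the 4 genes. Its A-genome copy Bra029127 stood at 0.572, 3.72 and 1.31 FPKM in Anther replicates 1, 2 and 3, against 0.267, 0.336 and 0.220 FPKM in Ovule replicates 1, 2 and 3. Its reads numbered 42, 271 and 98 in the Anther libraries and 20, 25 and 16 in the Ovule libraries. The tissues did not overlap, but the Anther libraries themselves differed more than for any other copy, with replicate 2 at 3.96 times the mean of the other Anther libraries. The difference of means was 6.81-fold with all libraries and 3.42-fold without Anther replicate 2. SHOC1 reached 0.5 FPKM in no Ovule library and was tested only because of its level in Anther, so its p-values add no support. In limma the copy was higher in Anther by 2.05 on the log2 scale, with a standard error of 0.55 (adjusted p = 0.0129), against 1.39 (adjusted p = 0.0138 from limma) without Anther replicate 2 and with the same genes tested, an alternative added after the data had been seen.

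MSH4 was represented by its C-genome copy Bol032857. It stood at 1.92, 6.87 and 3.13 FPKM in Anther replicates 1, 2 and 3, against 0.709, 0.988 and 0.672 FPKM in Ovule replicates 1, 2 and 3. The lowest Anther library was 1.94 times the highest Ovule library. The mean was 3.97 ± 2.58 FPKM in Anther and 0.790 ± 0.173 FPKM in Ovule (SD, n = 3 each), a 5.03-fold difference, and 3.20-fold without Anther replicate 2. In limma the copy was higher in Anther by 2.02 on the log2 scale, with a standard error of 0.50 (adjusted p = 0.00877).

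MSH5, the partner of MSH4, was the most abundant of the 4 genes per copy. Its A-genome copy Bra035777 stood at 2.40, 10.3 and 3.95 FPKM in Anther replicates 1, 2 and 3, against 1.22, 1.35 and 1.28 FPKM in Ovule replicates 1, 2 and 3. The B-genome copy BniB043474 stood at 2.92, 10.1 and 3.82 FPKM in Anther replicates 1, 2 and 3, against 0.992, 1.05 and 1.33 FPKM in Ovule replicates 1, 2 and 3. Neither copy overlapped between the tissues, and each copy held between 43.8% and 56.2% of their sum in all 6 libraries. On the log2 scale the A-genome copy was higher in Anther by 1.78, with a standard error of 0.47 (adjusted p = 0.0119 from limma), and the B-genome copy by 2.02, also with a standard error of 0.47 (adjusted p = 0.00650 from limma). The differences of means were 4.34-fold and 4.98-fold, and 2.48-fold and 3.00-fold without Anther replicate 2, for the A- and B-genome copies in that order.

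In the order of mean FPKM, most neighbouring copies were not apart by more than the spread between libraries. In Anther the order was MSH5 B-genome (5.60 ± 3.89 FPKM), MSH5 A-genome (5.56 ± 4.20), SPO22 C-genome (4.32 ± 2.58), MSH4 C-genome (3.97 ± 2.58), SPO22 A-genome (3.49 ± 2.52), SPO22 B-genome (2.64 ± 1.81) and SHOC1 A-genome (1.87 ± 1.65; SD, n = 3 each). Every neighbour in that order overlapped the next across libraries, although within a library the order held in all 3 libraries at each step except between the MSH5 copies, where it held in 1. In Ovule the order was MSH5 A-genome (1.28 ± 0.0679 FPKM), MSH5 B-genome (1.13 ± 0.180), SPO22 C-genome (1.08 ± 0.165), SPO22 B-genome (0.891 ± 0.115), MSH4 C-genome (0.790 ± 0.173), SPO22 A-genome (0.563 ± 0.137) and SHOC1 A-genome (0.274 ± 0.0587; SD, n = 3 each). There only SHOC1 was separate from its neighbour. MSH5 and the C-genome copy of SPO22 thus headed both orders and SHOC1 closed both, while the A- and B-genome copies of SPO22 changed places.

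Summed over its 3 copies, SPO22 stood at 5.42, 18.3 and 7.62 FPKM in Anther replicates 1, 2 and 3, against 2.48, 2.49 and 2.64 FPKM in Ovule replicates 1, 2 and 3. The shares of the copies within a library do not depend on how the libraries were scaled. The A-genome copy made up 33.6%, 34.8% and 29.7% of summed SPO22 FPKM in Anther replicates 1, 2 and 3, against 21.3%, 28.7% and 16.9% in Ovule replicates 1, 2 and 3. The B-genome copy made up 22.5%, 25.6% and 26.5% in Anther, against 39.9%, 30.6% and 34.9% in Ovule, in the same order of replicates. The C-genome copy held 42.4% ± 2.46 in Anther and 42.6% ± 4.93 in Ovule (SD, n = 3 each). The A-genome share was therefore higher in every Anther library and the B-genome share lower, with no overlap, by 10.4 and -10.3 percentage points on average. Reads were few, since the A-genome copy held 448 reads in Anther and 73 in Ovule and the B-genome copy 338 and 115.

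**Figure D2:**
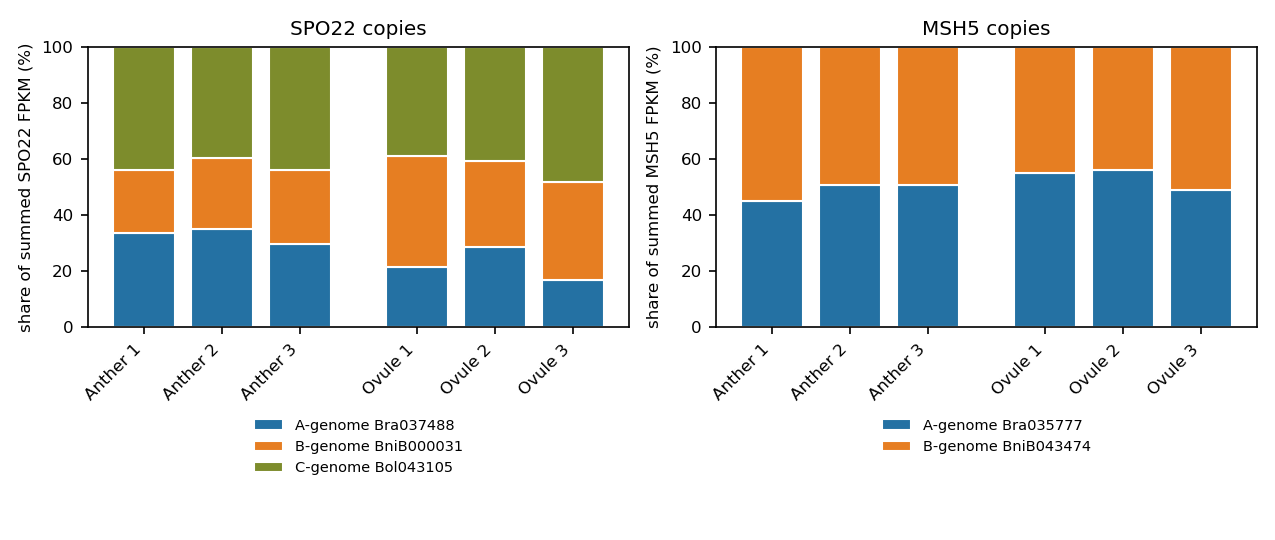
Share (%) of each copy in the summed FPKM of SPO22 (left) and MSH5 (right) in the 3 Anther and 3 Ovule libraries. The B-genome part of SPO22 is 22.5% to 26.5% in Anther and 30.6% to 39.9% in Ovule, while the MSH5 copies each hold between 43.8% and 56.2% in all 6 libraries.

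Tested as log2 ratios within a library, none of the 4 pairs of copies passed the threshold between Anther and Ovule, and 3 libraries against 3 cannot give an exact p under 0.1. The log2 ratio of the A- to the B-genome copy of SPO22 was 0.38 ± 0.20 in Anther and -0.59 ± 0.44 in Ovule (SD, n = 3 each; two-sided exact permutation test, p = 0.1, 0.2 after Benjamini-Hochberg adjustment over the 4 pairs). The ratio of the C- to the B-genome copy was 0.74 ± 0.15 in Anther and 0.25 ± 0.25 in Ovule, also without overlap (SD, n = 3 each; exact permutation p = 0.1, adjusted 0.2). The ratio of the A- to the C-genome copy overlapped between the tissues, at -0.36 ± 0.18 in Anther and -0.85 ± 0.44 in Ovule (SD, n = 3 each; exact permutation p = 0.2, adjusted 0.27). The A- and B-genome copies of MSH5 also overlapped, at -0.06 ± 0.18 in Anther and 0.18 ± 0.21 in Ovule (SD, n = 3 each; exact permutation p = 0.3, adjusted 0.3). How reads that fit several copies were counted is not given in the sources used here, and values of single copies depend on it.

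The proportion of MSH4 to MSH5, the partners of the heterodimer, overlapped between the tissues. The MSH4 copy stood at 0.360, 0.337 and 0.403 of the summed MSH5 copies in Anther replicates 1, 2 and 3, against 0.321, 0.411 and 0.258 in Ovule replicates 1, 2 and 3. This proportion covers a C-genome copy of MSH4 and the A- and B-genome copies of MSH5, so it is not the proportion of the whole genes.

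Leaf held almost no reads of these genes. The paper chose them as genes higher in both reproductive tissues than in Leaf on these same libraries, so the difference from Leaf is a description and is not independent evidence. The same limma fit called all 7 copies higher in Anther than in Leaf, where 38.4% of all genes tested were called higher, and all 7 higher in Ovule than in Leaf, where 36.8% were. These shares depend on scaling. Over all genes tested, 28784 were higher and 12670 lower in Anther than in Leaf, but 19906 and 17253 after rescaling by median-of-ratios factors, and 27612 were higher and 11071 lower in Ovule than in Leaf, but 15566 and 16423 after rescaling. The median log2 fold change of all genes was 0.66 in both comparisons, and 0.16 in Anther and 0.06 in Ovule after rescaling, while that of the 7 copies was 4.77 in Anther and 2.71 in Ovule before it. After rescaling, 7 copies were called higher in Anther than in Leaf and 6 higher in Ovule than in Leaf. Both comparisons share the Leaf libraries, and the count for Ovule fell to 2 with a pseudocount of 1 and to 4 with limma voom on the recovered reads. With only Ovule and Leaf fitted, SPO22 Bra037488 and SHOC1 fell under the filter, and 5 of the 5 copies tested were called. The A-genome copy of SPO22 had no read in any Leaf library and was at least 30.8-fold higher in Anther, at least 18.0-fold without Anther replicate 2, and at least 4.97-fold higher in Ovule, where 3 reads in each Leaf library were taken as the lower limit of detection. The B- and C-genome copies of SPO22 had 5 and 2 reads over the Leaf libraries, SHOC1 had 4, MSH4 had 3 in a single library, and MSH5 had 12 for its A-genome and 4 for its B-genome copy.

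Scaled to the reads on genes of each library, the MSH5 A-genome copy, with the most Leaf reads, was 33.3-fold higher in Anther than in Leaf (95% exact interval 19.0 to 64.9) and 7.71-fold higher in Ovule than in Leaf (4.29 to 15.3). Its Leaf levels were 0.116, 0.227 and 0.164 FPKM in replicates 1, 2 and 3, the highest of the 7 copies in Leaf on average. For the B-genome copy of MSH5 the ratios were 92.7 (36 to 341) in Anther and 18.7 (7.10 to 69.6) in Ovule. For MSH4 the same ratios were 88.7 (30.1 to 432) in Anther and 17.7 (5.85 to 87.5) in Ovule. For SHOC1 they were 63.7 (24.7 to 235) in Anther and 9.41 (3.49 to 35.6) in Ovule, and for the C-genome copy of SPO22 they were 172 (47.5 to 1427) in Anther and 43.2 (11.7 to 360.2) in Ovule. For the B-genome copy of SPO22 they were 41.9 (17.8 to 130.0) in Anther and 14.2 (5.91 to 44.5) in Ovule. Without Anther replicate 2 the Anther ratios were lower throughout, at 19.2 (10.8 to 37.6) for the A-genome and 56.2 (21.7 to 208) for the B-genome copy of MSH5, 56.7 (19.1 to 277) for MSH4, 32.4 (12.4 to 120.4) for SHOC1, and 25.9 (10.8 to 81.0) for the B-genome and 115 (31.4 to 952) for the C-genome copy of SPO22. The intervals cover counting error only and are wide because Leaf reads are so few, so the copies cannot be ranked by them. The ratios also depend on scaling. Median-of-ratios factors were 0.757 to 0.764 in Leaf, 1.05 to 1.11 in Anther and 1.19 to 1.21 in Ovule, so dividing by them would lower every ratio to Leaf.

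The larger values of Anther replicate 2 were shared by all 7 copies. That library stood at 2.54 to 3.96 times the mean of Anther replicates 1 and 3, with a median of 2.98 over the 7 copies, whereas the median over the genes tested with a value was 1.03, and 1.57% of those genes reached the lowest ratio of the 7 copies. The rise was not particular to these copies. By the same measure, summed HEI10 stood at 2.98 times, the axis and synapsis genes at 2.72 times, the break formation genes at 2.42 times and the crossover-limiting genes at 1.57 times. Summed over the 7 copies, Anther replicates 1, 2 and 3 held 13.2, 49.3 and 19.8 FPKM, against 5.66, 6.22 and 6.14 FPKM in Ovule replicates 1, 2 and 3 and 0.298 to 0.437 FPKM in Leaf. Ovule was thus nearly constant where Anther varied widely.

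Markers of other cells of the anther did not all move alike in that library. The 15 copies of the tapetum regulators AMS, MYB80 and TDF1 summed to 1851, 1874 and 1592 FPKM in Anther replicates 1, 2 and 3, against 0.914 to 9.13 FPKM in Ovule and 0.431 to 0.869 FPKM in Leaf. All 15 had reads in Anther, 14 had reads in Ovule and 4 in Leaf, where every MYB80 copy was at 0. In Anther replicate 2, AMS and MYB80, which make up most of the sum, stood at 1.10 and 0.904 times the mean of the other Anther libraries, while TDF1, which acts early in the tapetum in Arabidopsis, stood at 1.98 times, with 59.8, 116 and 57.7 FPKM in Anther replicates 1, 2 and 3. The 36 genes of sporopollenin synthesis and pollen wall formation summed to 12884, 6699 and 14126 FPKM in Anther replicates 1, 2 and 3, so that replicate 2 held 0.496 times the mean of the others. They summed to 39.9 to 136 FPKM in Ovule and 24.6 to 27.0 FPKM in Leaf. The 23 genes that the paper lists for the female gametophyte summed to 74.7 to 87.6 FPKM in Anther, 228 to 260.1 FPKM in Ovule and 22.2 to 27.5 FPKM in Leaf. These lists were chosen by the study on these libraries, and the part of stage or cell makeup in the values of Anther replicate 2 was not tested.

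Without Anther replicate 2, 6 of the 7 copies were still called higher in Anther than in Ovule when the same genes were tested, and the exception was the B-genome copy of SPO22. The log2 fold changes of the 6 were then 1.70 and 1.31 for the A- and C-genome copies of SPO22, 1.39 for SHOC1, 1.54 for MSH4, and 1.21 and 1.50 for the A- and B-genome copies of MSH5. Testing the same genes was an alternative added after the data had been seen. With the filter applied to the libraries left, SHOC1 was not tested and 5 of 6 copies were called. The A-genome copy of SPO22 and SHOC1 were again tested only because of their level in Anther, so their calls add nothing here either. Summed over the 7 copies, FPKM was 4.57-fold higher in Anther than in Ovule with all libraries and 2.75-fold higher without that library.

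The other meiotic genes that the paper lists by identifier differed in how they stood between Anther and Ovule. Of the 7 copies of HEI10, the other class I gene of that list, 4 were higher in Anther and 3 were not called, with log2 fold changes of 0.35 to 2.51 and the largest in the A-genome copy Bra039674. The 4 calls came to 2 without Ovule replicate 2 and to 3 without Anther replicate 2. Of the 6 copies of the axis and synapsis genes ASY1, ASY3 and ZYP1a, 5 were higher in Anther, with a median log2 fold change of 3.03, and the ASY3 copy BniB041399 was not called (0.17). None of the 7 copies of the break formation genes SPO11-1, PRD1, PRD3 and MTOPVIB was called by limma, by limma voom on the reads read back or under any other alternative. Of these, 1 copy, SPO11-1 BniB034973, had an unadjusted p under 0.05, with a log2 fold change of 1.21 (adjusted p = 0.0926 from limma). Of the 10 copies of TOP3a, RMI1, FANCM and RECQ4A, which limit crossovers, 2 were lower in Anther, both of RECQ4A, and 8 were not called. At an unadjusted limma p under 0.05, 2 copies were higher and 2 lower in Anther. In 3 copies all Anther libraries lay above all Ovule libraries, against 23.6% of all genes tested. In 3 copies all lay below, against 32.1% of all genes tested. Counts out of 10 copies this close to those shares do not set the list apart. The highest log2 fold changes were in the FANCM copies Bra034416 (0.78, adjusted p = 0.0533 from limma) and Bol031970 (0.77, adjusted p = 0.0478 from limma). Bol031970 thus passed the threshold for adjusted p, but both copies were under a fold change of 2. The copies called lower were Bra018418 (-1.20) and Bol022020 (-1.05), and the count came to 0 with a pseudocount of 1, to 1 after rescaling, with voom or without Ovule replicate 2, while 1 copy was called higher without Anther replicate 3. Among all genes tested, 14.3% were called higher and 14.3% lower in Anther, and these lists too were chosen by the study on these libraries.

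**Figure D3:**
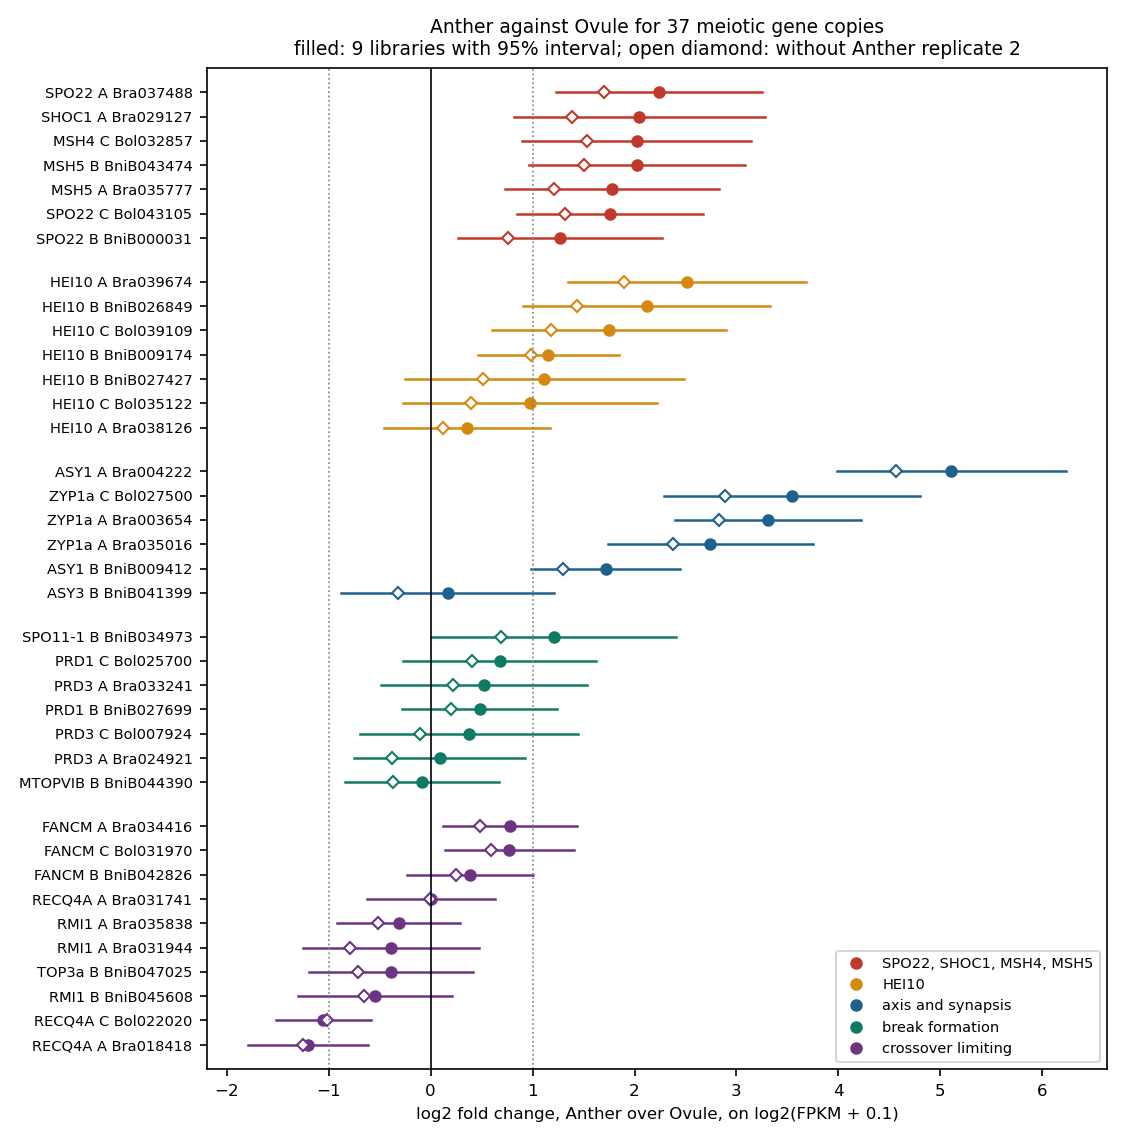
Log2 fold change of Anther over Ovule on log2(FPKM + 0.1) for the 7 copies of SPO22, SHOC1, MSH4 and MSH5 and the other 30 meiotic copies, with the 95% interval from limma (filled) and the value without Anther replicate 2 (open), and dotted lines at a fold change of 2 each way. The 7 copies lie at 1.27 to 2.24, and leaving out Anther replicate 2 moves each of them toward 0, with the SPO22 B-genome copy ending at 0.76.

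Set against these lists within a library, the 7 copies did not move alike with all of them. Their summed FPKM was 0.714, 1.05 and 0.970 times that of the break formation genes in Anther replicates 1, 2 and 3, against 0.285, 0.296 and 0.325 in Ovule replicates 1, 2 and 3. It was 0.448, 1.11 and 0.736 times that of the crossover-limiting genes in Anther, against 0.147, 0.153 and 0.170 in Ovule, in the same order. The Anther ratios were above the Ovule ratios in every library for both lists, also without replicate 2. Against the axis and synapsis genes the order turned, at 0.240, 0.290 and 0.284 in Anther and 0.419, 0.384 and 0.457 in Ovule. Against HEI10 the tissues overlapped, at 0.664 to 1.01 in Anther and 0.506 to 0.741 in Ovule. These ratios were chosen after the values had been seen and are given with no test.

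**Figure D4:**
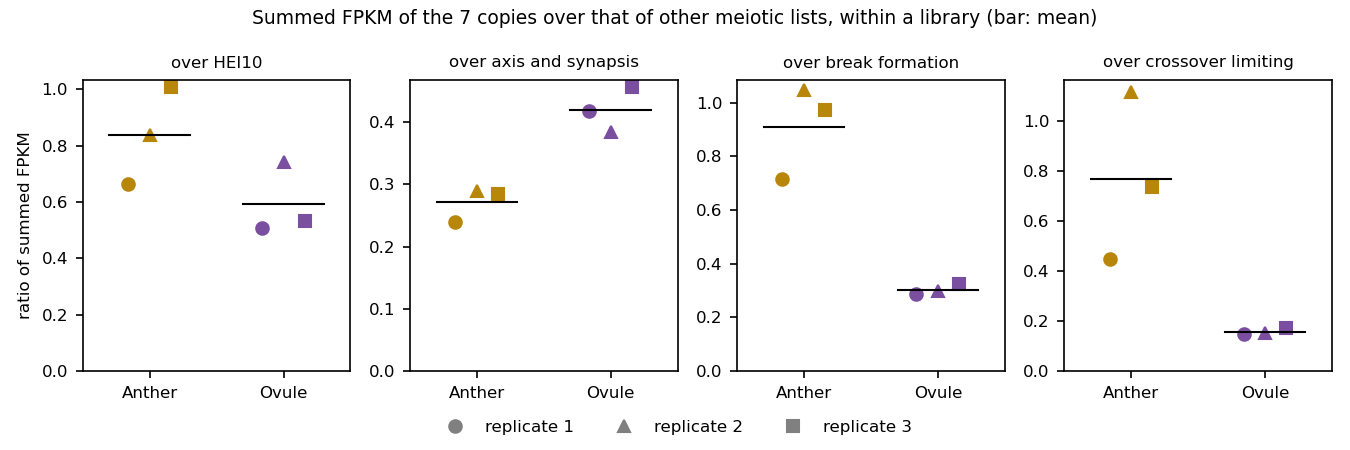
Summed FPKM of the 7 copies divided by that of HEI10, axis and synapsis, break formation and crossover-limiting genes, in each of the 3 Anther and 3 Ovule libraries (linear axes from 0, bar at the mean). Anther is above Ovule for break formation (0.714 to 1.05 against 0.285 to 0.325) and crossover limiting (0.448 to 1.11 against 0.147 to 0.170), and below it for axis and synapsis (0.240 to 0.290 against 0.384 to 0.457).

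Likeness of profile was measured as the root mean square difference of log2(FPKM + 0.1) over the 9 libraries after the mean of each gene was subtracted, so that 0 is an identical pattern. Among the genes that the paper names, the summed SPO22 copies were most like the B-genome copy of ASY1, BniB009412 (0.16), an axis gene, which was also the nearest of 75035 genes tested, followed by the HEI10 copy BniB026849 (0.28). Summed MSH5 was most like the A-genome copy of SPO22, Bra037488 (0.27), and the HEI10 copy Bol039109 (0.32). MSH4 was most like the same SPO22 copy (0.35) and the MSH5 copy BniB043474 (0.39), and SHOC1 was most like the MSH5 copy Bra035777 (0.43) and the SPO22 copy BniB000031 (0.53). Over all genes tested, these neighbours ranked 1 and 4 for SPO22 and 1 and 3 for MSH5. They ranked 3 and 7 for MSH4, and 7 and 60 for SHOC1, so genes that the paper does not name were nearer there. The genes that the paper names were chosen by the study on these libraries. The measure mixes the differences between the 3 tissues with those between libraries of a tissue, and it is given with no test.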

How the data were processed

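Per the paper, HISAT2 2.1.0 placed filtered reads on the B. rapa, B. nigra and B. oleracea genomes and HTSeq 0.6.0 counted them per gene, and the authors deposited FPKM made from these counts. StringTie 1.3.2 is named in the submitters' notes without a role. The authors tested differences with DESeq2, and their fold changes were not used here.

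From the deposited FPKM, limma 3.58.1 in R 4.3.3 fitted log2(FPKM + 0.1) with an eBayes trend in 1 model over the 9 libraries and 75038 genes. Fold changes on this scale understate those of low genes. Reads were read back with Python 3.11.15 and numpy 2.4.6 as described in the text. They set depth, floors, exact binomial intervals (scipy 1.17.1) and a limma voom alternative, and cover counting error only. Whole numbers of reads were found for all 100804 genes, taking the shortest gene length that gave them. Reads of a gene that share a common factor can thus come out too low. In Anther replicate 1 the reads found summed to 15208644, against 15244716 implied by the values. Voom on the reads found called 12205 genes higher and 9245 lower in Anther than in Ovule. The recovery and the fit were run on simulated data with the same extra spread between libraries in every tissue. The spread between the real libraries differed by tissue, so that run cannot show how the fit behaves on them.

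Members and lists were chosen with earlier results of these data known. Named genes are the 7 members, the paper's other meiotic genes as lists, and for each of the 4 genes the 2 most alike of the paper's 111 genes. Alternatives were 2 other pseudocounts, 2 other filters, median-of-ratios rescaling, a fit to the compared tissues alone, a block for the replicate number, voom, Leaf as 1 sample and leaving out each library.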

Additional observations from a re-analysis of the deposited data

Results flagged for a closer look

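The balance of the A- and B-genome copies of SPO22 lay on opposite sides of equality in the 2 reproductive tissues. On log2(FPKM + 0.1) the ratio of Bra037488 to BniB000031 was 0.54, 0.44 and 0.16 in Anther replicates 1, 2 and 3, and -0.80, -0.08 and -0.90 in Ovule replicates 1, 2 and 3. Every Anther library thus held more of the A-genome copy and every Ovule library more of the B-genome copy, a difference of 0.97 on the log2 scale. The exact permutation test gave p = 0.1, the smallest that 3 libraries against 3 allow, and 0.2 after adjustment over 4 pairs, so the result did not pass the threshold. In reads, the A-genome copy made up 52.9% to 60.0% of the reads of the pair in Anther and 32.8% to 48.4% in Ovule. The exact binomial 95% intervals of Anther replicate 3 (45.5% to 60.3%) and of Ovule replicate 2 (35.8% to 61.3%) included equality. That of Anther replicate 3 overlapped the intervals of all 3 Ovule libraries, and that of Ovule replicate 2 those of all 3 Anther libraries. Ovule replicate 2 held 31 reads of the A-genome copy and 33 of the B-genome copy.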

How the results depend on the processing

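The log2 fold change of Anther over Ovule kept its sign for all 7 copies under every alternative in which the copy was tested. The number of copies called higher was 7 in the main fit, after rescaling and with voom. It was 6 with a pseudocount of 1, without the filter or with only Anther and Ovule fitted. With a pseudocount of 0.01 it was 3 (the A-genome copies of SPO22, SHOC1 and MSH5). Except in the fit without the filter, SPO22 Bra037488 and SHOC1 were tested only because of their level in Anther, so their calls add nothing to these counts. When single libraries were left out the number of copies called was 5 or 6. It was 6 or 7 when an Anther library was left out with the same genes tested, which was added after the data had been seen. Of the calls lost, most were of BniB000031, which kept its call in 5 of 20 alternatives, with an adjusted p of 0.0102 to 0.126. With a replicate block 6 copies were called, without BniB000031 (adjusted p = 0.0511 from limma), and the count of calls in each list between Anther and Ovule was the same as without it. The check of pairing gave correlations of -0.09, -0.02 and 0.16 between same-numbered Anther and Ovule libraries. With so few libraries, these cannot tell whether same-numbered libraries share more than a number. SHOC1 fell under the filter at 1 FPKM and when an Anther library was left out.

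Against Leaf, the copies called higher in Ovule numbered 7, but 2 with a pseudocount of 1, 4 with limma voom and 6 after rescaling. They numbered 5 of the 5 tested with only Ovule and Leaf fitted, and 6 or 7 without single libraries. In Anther they numbered 6 or 7. The 4 HEI10 calls came to 2 without Ovule replicate 2 and to between 2 and 5 without single libraries. The 2 lower calls of crossover-limiting genes came to 0 with a pseudocount of 1, to 1 after rescaling and to 1 with voom. Without single libraries they came to 1 or 2, with 1 without Ovule replicate 2. The number of crossover-limiting copies called higher was 0, and 1 without Anther replicate 3. The fit of the lists to Anther and Ovule alone and the ratios to Leaf without Anther replicate 2 were added after the data had been seen. The differences of the 4 copy ratios kept their sign. The cause of these changes was not tested. Each copy rested on only 16 to 54 reads in an Ovule library and 0 to 5 in a Leaf library, which limits every ratio between copies and every fold against Leaf.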
